A study of Homo sapiens with 32 samples.

Results

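Major histocompatibility complex (MHC) class I and immunoproteasome genes were followed across 2 human lung cancer cell lines, H1299 and A549, in which SMARCA2 was knocked down. The 9 genes were HLA-B, HLA-C, HLA-E, HLA-F, B2M, TAP1, TAP2, PSMB8 and PSMB9. They were chosen by name with earlier results of these data known, so member counts set against all probe sets are a description. Their members are every probe set whose only annotated gene symbol is 1 of these. That gave 9 of the 19775 genes with a probe set of their own, and 23 of the array's 54675 probe sets. Of them 20 were tested among 32893 that read over log2 5 in at least 3 of the 32 arrays, and 3 dim ones (of HLA-F, TAP2 and B2M) did not pass. A further 6 probe sets are shared among HLA genes, but all of these genes are class II, so they are no readout of the 9 genes and were kept apart.

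SMARCA2 and SMARCA4 are alternative ATPases of the SWI/SNF chromatin remodelling complexes, and both lines are known to lack functional SMARCA4. Each stable line carried a short hairpin RNA, either S2sh7, aimed at the ATPase domain of SMARCA2, or shLuc, aimed at luciferase as the control. Each also expressed 1 of 4 cDNAs. In H1299 these were GFP, wild-type SMARCA2 (WT), a bromodomain mutant of SMARCA2 (BRD) or ATPase-dead SMARCA2 (ATPdead). In A549 they were GFP or the same 3 forms of SMARCA4. The cells were grown in serum-containing medium with no further treatment. H1299 had 3 arrays per group in 8 groups, labelled biological replicates, and A549 had 1 array in each of 8 groups. No label ties the replicates to separate infections, clones or culture dishes, and the p-values then describe array-to-array spread that may be technical. The vectors and promoters that drive the cDNAs are not given in the sources used here.

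MHC class I molecules show peptides from the cell's own proteins to cytotoxic T cells and natural killer cells. A heavy chain encoded by an HLA gene pairs with beta-2-microglobulin, the product of B2M, and binds peptides that the TAP1 and TAP2 transporter pumps into the endoplasmic reticulum. The immunoproteasome, in which PSMB8 and PSMB9 replace constitutive catalytic subunits, cuts many of these peptides, and most of the genes are induced by interferons. In carcinoma cells the level of this machinery bears on how well T cells can see the cell.

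The upstream sequences of 6 of the genes are shown because ISRE, NF-kB and Y box elements are known routes of induction of class I genes, and the windows differ in which of these letters they hold. Of these elements only a Y box core was matched in the PSMB9 window, at a site shared with the TAP1 window. The upstream ISRE and NF-kB matches of TAP1 also lie between the TAP1 and PSMB9 starts, but beyond the far end of the PSMB9 window. Their absence from that window therefore follows from where it was cut. The sequences are the 250 bases before a RefSeq transcription start (GRCh38.p14, 5′ to 3′ on the gene's strand). Capitals mark matches, on either strand, to an interferon-stimulated response element (ISRE, here GAAA, any 2 bases, then GAAA), to the Y box core CCAAT or to the NF-kB consensus, and neighbouring or overlapping matches run together.
B2M upstream: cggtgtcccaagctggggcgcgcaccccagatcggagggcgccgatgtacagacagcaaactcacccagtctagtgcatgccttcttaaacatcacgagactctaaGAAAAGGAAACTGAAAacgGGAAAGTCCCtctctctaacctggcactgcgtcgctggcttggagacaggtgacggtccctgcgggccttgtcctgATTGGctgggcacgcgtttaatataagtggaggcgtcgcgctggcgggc
TAP1 upstream: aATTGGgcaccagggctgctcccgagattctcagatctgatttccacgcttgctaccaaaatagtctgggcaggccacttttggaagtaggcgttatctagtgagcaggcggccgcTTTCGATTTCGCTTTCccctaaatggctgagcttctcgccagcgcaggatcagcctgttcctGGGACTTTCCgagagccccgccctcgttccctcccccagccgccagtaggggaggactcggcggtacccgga
PSMB9 upstream: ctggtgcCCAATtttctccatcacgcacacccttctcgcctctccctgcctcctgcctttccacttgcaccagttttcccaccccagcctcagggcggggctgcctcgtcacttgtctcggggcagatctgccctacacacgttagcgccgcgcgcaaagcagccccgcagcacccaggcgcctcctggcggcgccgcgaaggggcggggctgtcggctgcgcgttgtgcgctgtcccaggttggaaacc
TAP2 upstream: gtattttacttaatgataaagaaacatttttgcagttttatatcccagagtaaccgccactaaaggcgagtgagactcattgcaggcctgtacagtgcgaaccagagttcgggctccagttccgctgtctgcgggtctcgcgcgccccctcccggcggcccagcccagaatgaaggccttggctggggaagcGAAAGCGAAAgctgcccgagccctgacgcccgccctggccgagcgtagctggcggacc
HLA-B upstream: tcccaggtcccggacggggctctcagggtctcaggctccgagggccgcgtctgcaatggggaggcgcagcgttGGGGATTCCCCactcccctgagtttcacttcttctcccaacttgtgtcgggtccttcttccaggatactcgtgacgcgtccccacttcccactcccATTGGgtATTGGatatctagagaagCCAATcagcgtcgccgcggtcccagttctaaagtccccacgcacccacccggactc
HLA-F upstream: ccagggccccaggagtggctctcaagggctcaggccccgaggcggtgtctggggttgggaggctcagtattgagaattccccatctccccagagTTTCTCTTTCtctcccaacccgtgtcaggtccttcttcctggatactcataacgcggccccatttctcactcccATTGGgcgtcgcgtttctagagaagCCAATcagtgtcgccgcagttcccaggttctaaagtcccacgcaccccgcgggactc
The B2M stretch lies at chr15:44711267-44711516, plus strand, TAP1 at chr6:32853705-32853954, minus strand, and PSMB9 at chr6:32853942-32854191, plus strand. TAP2 lies at chr6:32838740-32838989, minus strand, HLA-B at chr6:31357180-31357429, minus strand, and HLA-F at chr6:29723184-29723433, plus strand. TAP1 and PSMB9 are transcribed away from each other from a shared interval, and their 2 stretches overlap at the far ends. On chromosome 6 the RefSeq order of the 8 genes is HLA-F, HLA-E, HLA-C, HLA-B, TAP2, PSMB8, TAP1 and PSMB9, and B2M is on chromosome 15.

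Of the 9 genes 8 had an entry, with 10 windows of 300 bases in all; HLA-E is named only. An ISRE match was present in 5 of the 10 windows and in 3.57% of 35116 windows of the same length over all genes. It stood upstream in B2M and in a TAP1 window, each as 2 overlapping matches, in TAP2 and in HLA-F. In a PSMB8 window it spanned the start. The other TAP1 window, not printed above, held no ISRE, Y box or NF-kB match. The Y box core was in 6 of 10 windows against 34.6% of all, and the NF-kB consensus in 4 of 10 (B2M, TAP1, HLA-B and HLA-C) against 11.3%. The Y box matches of TAP1 and PSMB9 are the same bases, in the overlap of their windows, so that site is counted in both. The interferon-gamma element (GAS, TTCNNNGAA) was in 2 of 10 against 7.66%, the GC box (GGGCGG) in 7 of 10 against 45% and the core of the cyclic AMP element (TGACG) in 6 of 10 against 24.6%. These are matches of letters in a window, not measured binding. Sites that depart from the letters used were not counted, so a window without a match may still hold such an element.

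Several facts about the arrays bear on all of these values. The files hold RMA intensities, and values below are log2 of them. Array medians were 26.4 to 27.3 in H1299 and 40.1 to 41.2 in A549, and the labels put the lines in different batches, so line and batch cannot be told apart. SMARCA2 fell with S2sh7 in 4 of its 5 tested probe sets in both lines. In H1299 with GFP 4 of 7 SMARCA4 probe sets were called lower too (-0.68 to -0.29). S2sh7 was the only hairpin aimed at SMARCA2, and effects of it beyond SMARCA2 were not tested. SMARCA2 levels in the H1299 cells with a SMARCA2 cDNA were not compared here. None of 12 leukocyte markers was over log2 5 in all H1299 arrays, and PTPRC read at most 3.45 there. In all A549 arrays 5 of the 12 were over log2 5, among them CD14, which was called lower with S2sh7 (-1.13). A value of log2 5 lies below the A549 array medians and above those of H1299. Counts over log2 5 and the summed intensities that follow are therefore not compared between the lines. The summed intensity of the 12 was 211 to 244 with shLuc and 218 to 245 with S2sh7 in H1299, and 470 to 505 and 388 to 446 in A549. Of the 5 epithelial carcinoma markers KRT8 and KRT18 were bright in both lines and EPCAM was below log2 5 in every H1299 array. Their summed intensity was lower with S2sh7, 6407 to 7621 against 9329 to 10025 in H1299 and 18602 to 19397 against 26981 to 30873 in A549. The 4 fibroblast markers summed to 134 to 160 with shLuc and 135 to 169 with S2sh7 in H1299, and to 378 to 421 and 444 to 558 in A549, where COL3A1 rose by 2.81 (adjusted p = 0.00513). The part of these shifts in the results below was not tested. In a bulk sample fewer cells of a kind and less RNA per cell cannot be told apart. Of the HLA probe sets, all those of HLA-B and HLA-C, 2 of the 3 of HLA-E and 2 of the 3 of HLA-F are of the array's x type, with probes that match several related genes. Differences between these HLA genes are therefore uncertain.

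In H1299 with GFP, all 9 genes were lower with S2sh7 than with shLuc. Of the 20 tested probe sets 19 were called lower and 0 higher in limma at adjusted p under 0.05, where 14.3% of all probe sets were called lower and 10.3% higher. The median log2 fold change was -0.47 over the 20 and 0.008 over all probe sets. The immunoproteasome subunit PSMB8 and the classical heavy chains HLA-B and HLA-C fell most, and the transporter subunit TAP2 least. In all 20 probe sets each S2sh7 array read below each shLuc array, as 20.7% of all probe sets did.

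Among the heavy chains, HLA-B, a classical molecule that presents peptides to T cells, read 11.87, 11.84 and 11.86 in the 3 shLuc arrays and 11.17, 11.20 and 11.25 in the 3 S2sh7 arrays. The arrays were tight within a group and did not overlap between groups. The log2 fold change was -0.65 (SE 0.0294, limma adjusted p = 3.91e-12), or 0.638 of the control level. HLA-C, the other classical gene here, which is also a main ligand of killer cell receptors, read 11.75, 11.75 and 11.72 with shLuc and 11.12, 11.09 and 11.15 with S2sh7. Again there was no overlap, with a change of -0.62 (SE 0.0316, adjusted p = 1.92e-11). The 3 HLA-B probe sets gave -0.67 to -0.65 and the 4 of HLA-C -0.62 to -0.56.

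The nonclassical heavy chains fell less far. HLA-E presents signal peptides of other class I chains to natural killer cells, and read 9.72, 9.70 and 9.60 with shLuc against 9.22, 9.23 and 9.25 with S2sh7 (-0.44, SE 0.0443, adjusted p = 3.32e-07). HLA-F read 9.23, 9.17 and 9.13 against 8.71, 8.63 and 8.69 (-0.50, SE 0.0541, adjusted p = 1e-06). Both sets of arrays were apart. The HLA-E probe set that is not of the x type gave -0.32, the smallest fall of the 3. B2M, the light chain that pairs with these heavy chains, read 12.84, 12.86 and 12.86 with shLuc and 12.49, 12.48 and 12.41 with S2sh7. Its change of -0.39 (SE 0.0279, adjusted p = 2.56e-09) was small but well outside the spread of either group.

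The 2 subunits of the peptide transporter gave changes of unlike size, a difference that was not tested. TAP1 read 8.28, 8.17 and 8.20 with shLuc and 7.76, 7.76 and 7.80 with S2sh7, without overlap (-0.44, SE 0.0538, adjusted p = 4.62e-06). TAP2 read 8.04, 8.13 and 8.05 against 7.85, 7.93 and 7.94 (-0.16, SE 0.0502, adjusted p = 0.0223). The TAP2 groups were separate by a narrow margin, and the call was lost after repeated quantile normalization (adjusted p = 0.0624) and with only these groups fitted (0.0537). It was also lost without shLuc replicate 2 (0.092) or S2sh7 replicate 1 (0.101). Its other tested probe sets gave -0.28, called, and -0.15, which was the 1 member not called (adjusted p = 0.103).

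Both immunoproteasome subunits fell. PSMB8, the chymotrypsin-like subunit, had the largest change of the 9 genes. Its shLuc arrays read 8.46, 8.47 and 8.47, its S2sh7 arrays 7.69, 7.78 and 7.64, and the change was -0.77 (SE 0.0364, adjusted p = 7.68e-12), or 0.588 of control. PSMB9, which replaces the caspase-like subunit, read 7.29, 7.27 and 7.30 with shLuc and 6.56, 6.82 and 6.85 with S2sh7, 1 S2sh7 array lying below the other two (-0.54, SE 0.0646, adjusted p = 3.08e-06).

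**Figure D1:**
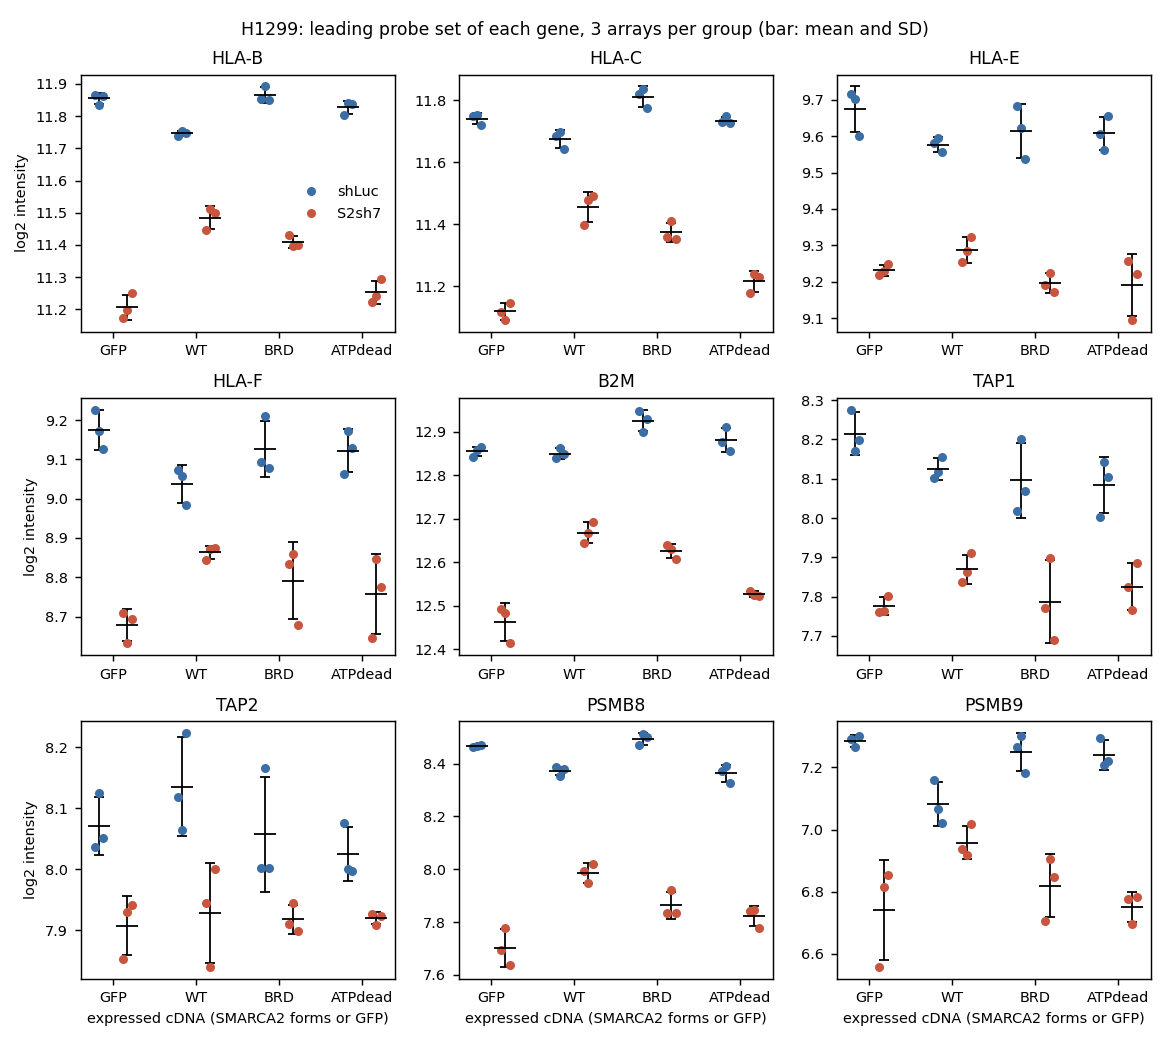
Log2 intensity (vertical axis) of the leading probe set of each gene, the one with the highest mean, in H1299 by expressed cDNA (horizontal axis) and hairpin, each point 1 array and each bar the mean and SD of 3. With GFP every S2sh7 point lies below every shLuc point in all 9 panels, and for HLA-B the S2sh7 points with WT (11.45 to 11.51) lie between the S2sh7 points with GFP (up to 11.25) and the shLuc points.

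With a SMARCA2 cDNA present most of the genes still fell with S2sh7. With WT 16 of 20 probe sets were called lower (10.4% of all) and 0 higher (10.2% of all), with a median of -0.21. With BRD 18 were lower (11.6% of all, median -0.39) and 0 higher (7.93%), and with ATPdead 17 were lower (10.8% of all, median -0.42) and 0 higher (12.1%). PSMB8 changed by -0.39 with WT, -0.63 with BRD and -0.54 with ATPdead, all called. HLA-B changed by -0.26, -0.46 and -0.58 in the same order, and B2M by -0.18, -0.30 and -0.35, again all called. HLA-F was called with WT (-0.17, adjusted p = 0.0265), but not without shLuc replicate 1 or 2 or any 1 of the S2sh7 replicates (0.0567 to 0.0952). PSMB9 is the gene whose call was lost with WT. Its arrays read 7.16, 7.07 and 7.02 with shLuc and 6.94, 6.92 and 7.02 with S2sh7, which nearly touch without crossing (-0.12, SE 0.0646, adjusted p = 0.201). The leading TAP2 probe set was called with WT (-0.21) and not with BRD (-0.14, adjusted p = 0.0596) or ATPdead (-0.10, adjusted p = 0.155). The WT call was lost with only those groups fitted (0.0748). With BRD it was called with a filter of log2 over 6 (0.0398), 1 probe set per gene (0.0469), centring (0.0465) and trend and robust moderation (0.0297). The HLA-E probe set that is not of the x type gave -0.05 with WT and -0.07 with ATPdead, neither called, and -0.26 with BRD, called.

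**Figure D2:**
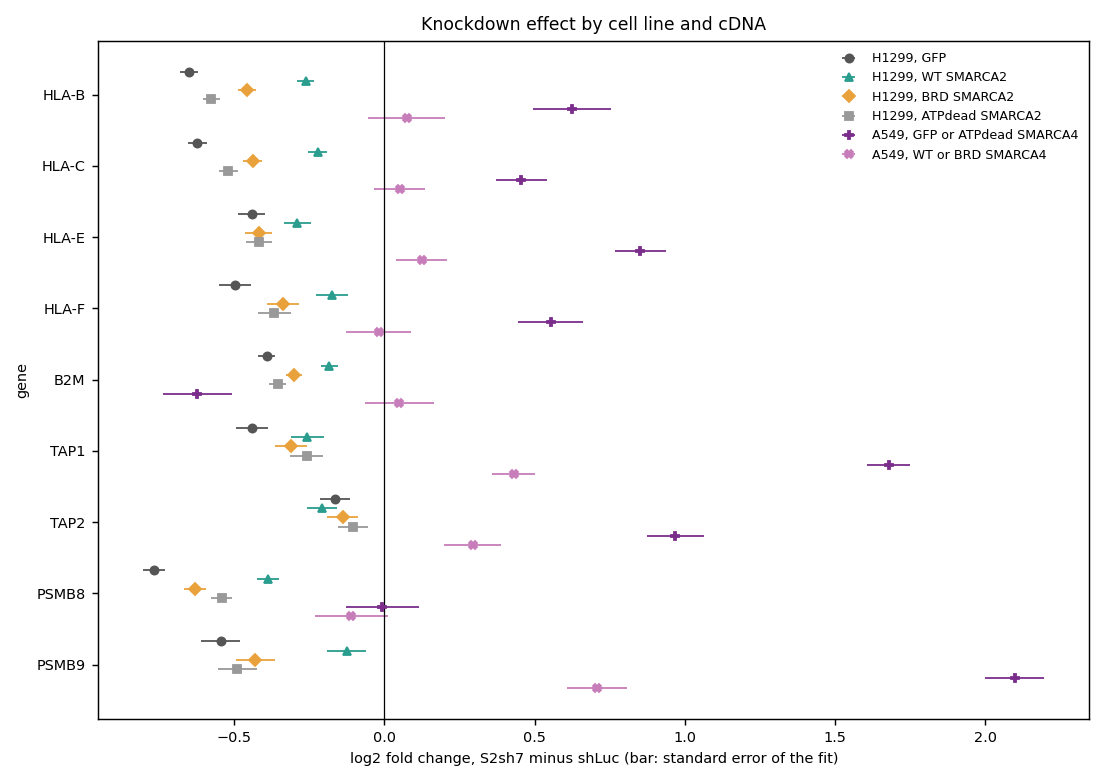
Log2 fold change of S2sh7 against shLuc (horizontal axis) for the leading probe set of each gene (vertical axis), by line and cDNA, with the standard error of the fit as bars. In H1299 all points lie below 0, the WT points nearest to it except for TAP2; in A549 with GFP or ATPdead SMARCA4 the points lie above 0 for 7 genes, for PSMB8 at -0.006 and for B2M at -0.62.

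Whether a cDNA changed the knockdown effect was tested as the difference of the 2 effects in 1 fit. With WT against GFP, 11 of the 20 probe sets were called higher, that is less lowered, and 0 lower, against 0.912% and 0.28% of all (1.19% either way). The genes were PSMB9 (0.42, SE 0.0913, adjusted p = 0.029), HLA-C (0.40, adjusted p = 4.84e-05), HLA-B (0.39, adjusted p = 3.68e-05), PSMB8 (0.38, adjusted p = 0.000504), HLA-F (0.32, adjusted p = 0.0459) and B2M (0.21, adjusted p = 0.0102). Every HLA-B and HLA-C probe set was among them, as was 1 of 2 of B2M and of HLA-F. HLA-E (0.15, 95% interval 0.02 to 0.28), TAP1 (0.18, 0.02 to 0.34) and TAP2 (-0.04, -0.19 to 0.10) were not called. The PSMB9, B2M and HLA-F calls were lost without the filter on dim probe sets (adjusted p = 0.0688, 0.0656 and 0.112), and with only these groups fitted (0.131, 0.114 and 0.0509). The HLA-F call was lost without any 1 of the 12 arrays (0.0562 to 0.138). That of PSMB9 was lost without shLuc GFP replicate 1 or 3, shLuc WT replicate 2 or 3, S2sh7 GFP replicate 1 or S2sh7 WT replicate 3 (0.0568 to 0.078). The difference of effects takes in both hairpins. For PSMB9 the WT and GFP means were 7.08 and 7.29 with shLuc, and 6.96 and 6.74 with S2sh7. For HLA-F they were 9.04 and 9.17, then 8.86 and 8.68. With S2sh7 alone, WT against GFP was 0.215 for PSMB9 and 0.184 for HLA-F. Neither was called in the main fit, and both were with a filter of log2 over 6 (0.0455 and 0.04).

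With BRD against GFP no member was called, against 0.182% of all probe sets called higher and 0.0912% lower, and with ATPdead against GFP none either, against 0.0122% and 0.00608% (0.0182% either way). At unadjusted p under 0.05, 9 and 5 of the 20 were higher and 0 lower, where 9.57% and 10.5% of all probe sets passed either way. HLA-B came nearest with BRD (0.19, 95% interval 0.11 to 0.28, adjusted p = 0.0568), and was called there with a filter of log2 over 6 (adjusted p = 0.0226) and without S2sh7 GFP replicate 3 (0.0383). It was also called with 1 probe set per gene (0.0218) and with trend and robust moderation (0.000397). That moderation called HLA-C with BRD too (0.18, adjusted p = 0.00202). With ATPdead the HLA-B probe set gave 0.07 (-0.01 to 0.16, adjusted p = 0.555). The WT and BRD effects set against each other, a comparison added after seeing the data, gave 0 of 20 called (0.0334% of all higher, 0.0213% lower). For HLA-C that difference was 0.22 (adjusted p = 0.0718). The WT and ATPdead effects, set against each other in the same way, gave 7 of 20 higher (0.207% of all), all of them HLA-B and HLA-C probe sets, led by 0.31 and 0.30 (adjusted p = 0.000839 and 0.0022). All these comparisons with GFP share the GFP arrays.

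Under S2sh7 the levels of HLA-B, HLA-C, B2M and PSMB8 stood in 1 order, GFP lowest, then ATPdead, BRD and WT. HLA-B means were 11.21, 11.25, 11.41 and 11.49, with SDs of 0.02 to 0.04 (n = 3 each). B2M means were 12.46, 12.53, 12.63 and 12.67 in that order. WT was above GFP in 10 of 20 probe sets (2.22% of all) and below in 0 (1.56%, 3.78% either way), with HLA-C at 0.34, PSMB8 and HLA-B both at 0.28 and B2M at 0.20 (adjusted p = 1.85e-06, 8.09e-05, 7.74e-06 and 0.000153). BRD was above GFP in 9 of 20 (2.08% of all) and below in 0 (1.88%, 3.96% either way), with HLA-C at 0.26 and HLA-B at 0.20. PSMB8 (0.16) was not called there without GFP replicate 1 or 3 or BRD replicate 2 (adjusted p = 0.0524 to 0.0815). ATPdead was above GFP in 1 of 20 (0.392% of all), the HLA-E probe set not of the x type at 0.20, and below in 0 (0.897%, 1.29% either way). That call was lost without the filter, after repeated quantile normalization, after centring and with only these groups fitted. It was also lost without any 1 of the 6 arrays. For HLA-B the ATPdead minus GFP difference was 0.05 (95% interval -0.02 to 0.11, adjusted p = 0.557).

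Neighbours in that order were not all distinct. BRD against WT gave 0 of 20 called (0.0152% of all higher, 0.0304% lower, 0.0456% either way), with 9 lower at unadjusted p under 0.05 (8.77% of all either way). For HLA-B the difference was -0.08 (-0.14 to -0.01). ATPdead against WT gave 10 of 20 lower (0.869% of all) and 0 higher (0.818%, 1.69% either way), all 10 of HLA-B, HLA-C, B2M and PSMB8. PSMB8 was not called without WT replicate 1 or 3 or ATPdead replicate 2 or 3 (adjusted p = 0.0521 to 0.0916), nor B2M without WT replicate 3 (0.0509). HLA-C led with -0.24 (SE 0.0316, adjusted p = 0.000261). ATPdead against BRD was not tested, and the share of all probe sets whose arrays lie apart in this pair was not counted. HLA-B read 11.40 to 11.43 in the 3 BRD arrays and 11.22 to 11.29 in the 3 ATPdead arrays. Both transporter genes and HLA-E showed no called difference among these leading probe sets. Fitted on only the groups compared, WT against GFP kept 10% of the 20 probe sets as calls, and BRD against GFP and ATPdead against WT kept 0%.

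With the control hairpin no cDNA moved a member past the threshold. WT against GFP called 0.383% of all probe sets higher and 0.666% lower, BRD 0.35% and 0.176%, and ATPdead 0.00912% and 0.0334% (0.0426% either way). At unadjusted p under 0.05, 11 of the 20 were lower with WT and 0 higher, 2 higher and 1 lower with BRD, and 0 higher and 2 lower with ATPdead. Of all probe sets 12.3%, 11% and 11.3% passed either way, so the BRD and ATPdead counts are near the background. HLA-B came nearest with WT, reading 11.74, 11.75 and 11.75 against 11.87, 11.84 and 11.86 with GFP. These arrays did not overlap (-0.11, adjusted p = 0.0897). PSMB9 was -0.20 (adjusted p = 0.155). The HLA-B difference was called with a filter of log2 over 6 (adjusted p = 0.0426), with 1 probe set per gene (0.0392) and with trend and robust moderation (0.00361).

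**Figure D3:**
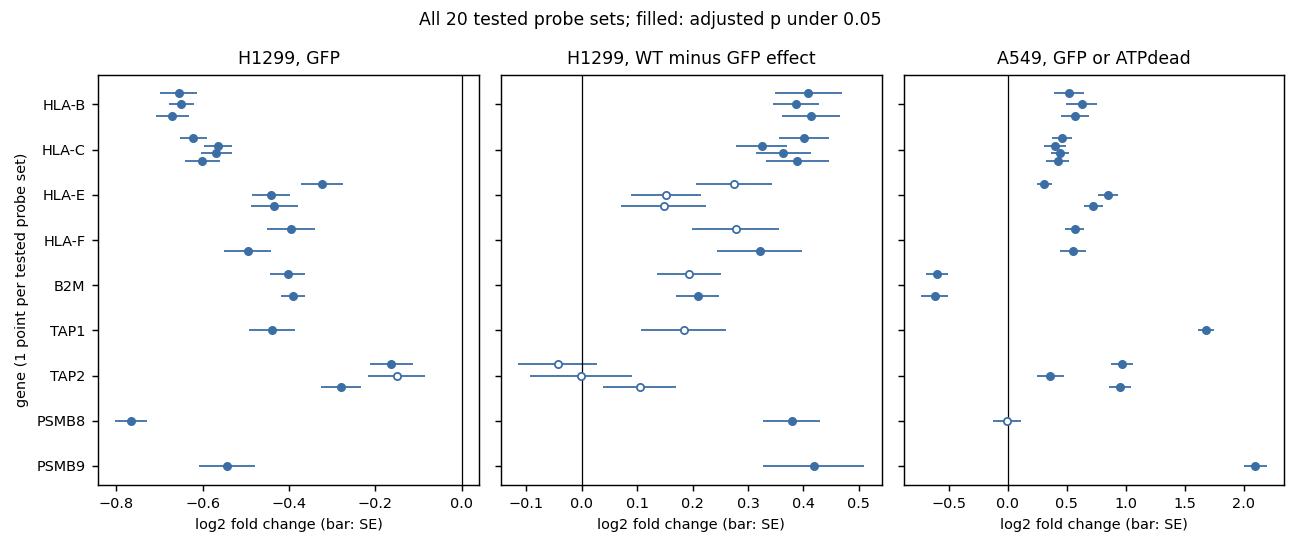
Log2 fold change (horizontal axes, SE as bars) of all 20 tested probe sets, grouped by gene (vertical axis), for the H1299 knockdown with GFP, the WT minus GFP difference of knockdown effects, and the A549 knockdown with GFP or ATPdead SMARCA4. Filled points passed adjusted p under 0.05; the 3 HLA-B and the 4 HLA-C points lie close together in each panel, and the B2M points are the 2 below 0 in A549 that are filled.

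In A549 the same hairpin moved most of these genes upward where no ATPase-competent SMARCA4 was expressed, and B2M downward. With GFP or ATPdead, 17 of the 20 probe sets were called higher and 2, both of B2M, lower. That fit called 24.8% of all probe sets higher and 20.6% lower. The median log2 fold change was 0.53 over the 20 and 0.007 over all. No A549 group has a replicate, so the 2 cDNAs stand in for replicates and the residual (4 degrees of freedom) holds their differences.

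PSMB9 rose most. Its arrays read 7.06 with shLuc and 9.17 with S2sh7 in GFP cells, and 6.99 and 9.07 in ATPdead cells (n = 1 each). The change was 2.10 (SE 0.0992, limma adjusted p = 2.09e-06), or 4.28 times the control. TAP1, its divergent neighbour, read 7.97 and 9.62 with GFP and 7.94 and 9.65 with ATPdead (1.68, adjusted p = 1.28e-06). In both genes the 2 pairs agree closely. TAP2 read 7.30 and 8.42, then 7.50 and 8.32 (0.97, adjusted p = 8.31e-05).

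The heavy chains rose less. HLA-E read 9.37 and 10.33 with GFP and 9.35 and 10.09 with ATPdead (0.85, adjusted p = 9.22e-05). HLA-B (0.62), HLA-F (0.55) and HLA-C (0.46) were called too (adjusted p = 0.00449, 0.0036 and 0.00277). Their light chain went the other way. B2M read 12.11 with shLuc and 11.62 with S2sh7 in GFP cells, and 11.99 and 11.24 in ATPdead cells, the lowest 2 of the 8 A549 arrays being those with S2sh7 (-0.62, SE 0.115, adjusted p = 0.00259). PSMB8, which fell most in H1299, read 7.75 and 7.79 with GFP and 7.69 and 7.63 with ATPdead. It was not called (-0.01, 95% interval -0.28 to 0.27, adjusted p = 0.972).

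**Figure D4:**
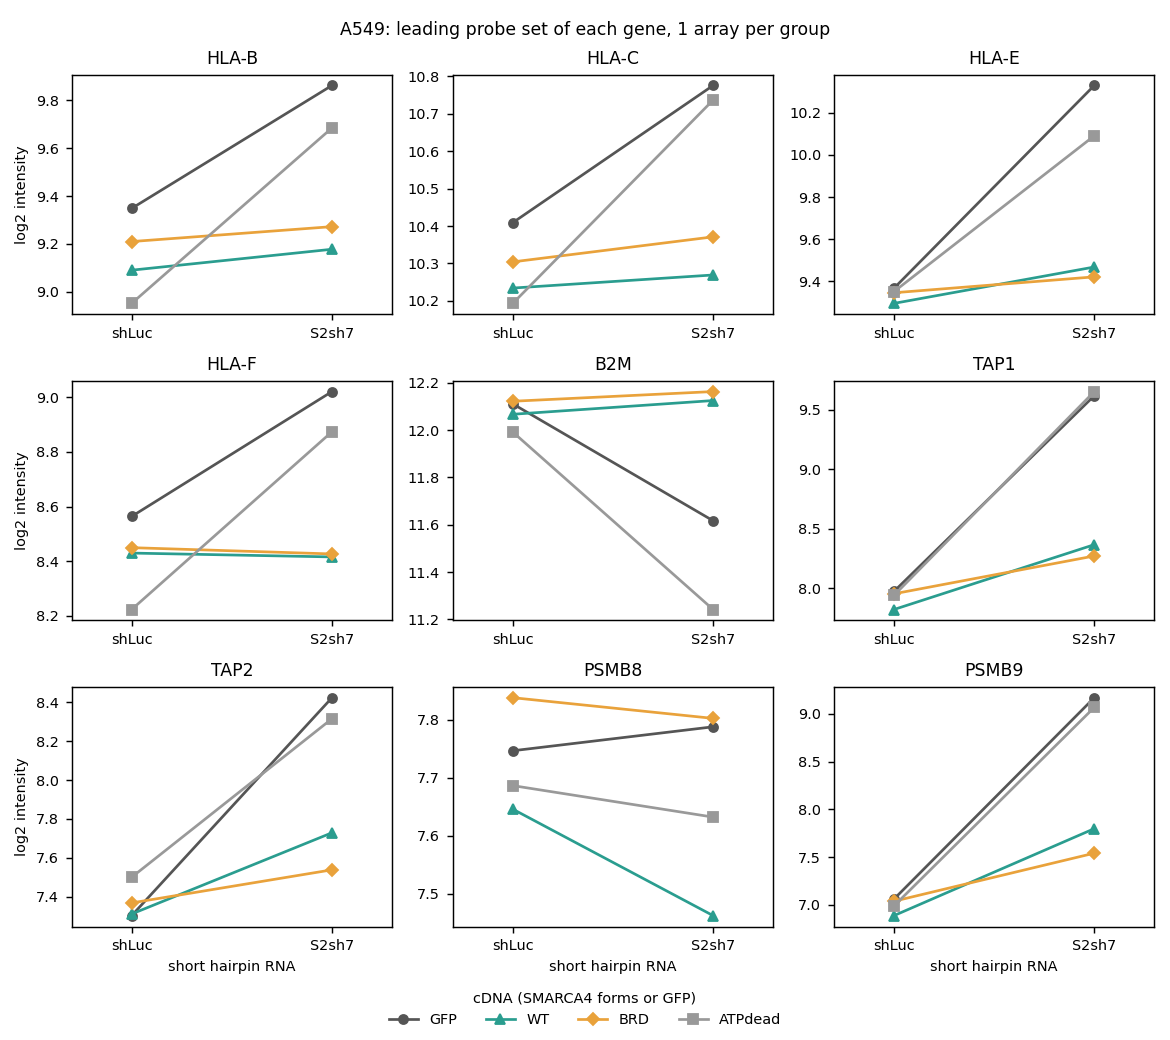
Log2 intensity (vertical axis) of the leading probe set of each gene in A549 with shLuc and S2sh7 (horizontal axis), each point 1 array and each line 1 cDNA. The GFP and ATPdead lines climb steeply for PSMB9, TAP1, TAP2 and HLA-E and drop for B2M, while the WT and BRD lines are flatter in these panels.

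With an ATPase-competent SMARCA4, WT or BRD, 2 of the 20 probe sets were called higher, near the background of 9.35% of all, and 0 lower (7.64%). These were PSMB9, which read 6.89 and 7.80 with WT and 7.04 and 7.54 with BRD (0.71, adjusted p = 0.00306), and TAP1 (0.43, adjusted p = 0.00617), whose call was lost without the shLuc WT array (0.0541). B2M read 12.07 and 12.13 with WT and 12.12 and 12.16 with BRD, a change of 0.05 (95% interval -0.22 to 0.31). The difference of the 2 knockdown effects, competent minus not, was called lower in 10 of 20 (9.6% of all) and higher in 2 (9.82%), the 2 of B2M. The count of 2 higher is near that background. PSMB9 (-1.39, SE 0.14, adjusted p = 0.000524), TAP1 (-1.25, adjusted p = 0.000229), HLA-E (-0.73), TAP2 (-0.67) and HLA-F (-0.57) led the lower calls, and B2M was 0.67 (adjusted p = 0.0234). The leading probe sets of HLA-C (-0.40, adjusted p = 0.0509) and HLA-B (-0.55, adjusted p = 0.0728) missed the threshold. HLA-C was called with log2 over 6 (0.0331), 1 probe set per gene (0.0397), repeated quantile normalization (0.0479) and centring (0.0416). With trend and robust moderation both were called (0.00867 for HLA-C and 0.0464 for HLA-B). Without the shLuc GFP array they were -0.51 and -0.75, with 1 array left in that cell. The HLA-F call was lost without any 1 of 6 arrays (0.0609 to 0.106), all but shLuc GFP and S2sh7 ATPdead. That of B2M was lost without shLuc GFP or any 1 WT or BRD array (0.0578 to 0.0801).

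In the additive fit over all 4 cDNAs the A549 knockdown called 4 of 20 probe sets higher (11.3% of all) and 0 lower (8.77%, 20.1% either way): PSMB9 (1.40, adjusted p = 0.035), TAP1 (1.05, adjusted p = 0.0484) and 2 of TAP2 (leading 0.63, adjusted p = 0.0488). The count was 0 without any 1 of the GFP, WT or ATPdead arrays of either hairpin. No probe set of the array was called for WT, BRD or ATPdead SMARCA4 against GFP over both hairpins (0% each in limma), so no member was. At unadjusted p under 0.05, 3 of the 20 were lower with WT, 1 with BRD and 0 with ATPdead, and 0 were higher in each, where 4.08%, 6.44% and 2.27% of all passed either way.

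The lines were set side by side for the knockdown with GFP. Each A549 arm is 1 array, in another batch and scaled apart, so the difference between lines has no replicate check on the A549 side and the values are a description. The log2 change in A549 minus that in H1299 was 2.66 for PSMB9, 2.08 for TAP1, 1.40 for HLA-E, 1.28 for TAP2 and 1.16 for HLA-B. For PSMB8 it was 0.81. For B2M, which read lower with S2sh7 in both lines, it was -0.10.

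The 9 genes moved in step across the H1299 arrays. Over the 24 arrays the 36 pairs of leading probe sets had Pearson correlations of 0.703 to 0.99 with a median of 0.922. HLA-B and HLA-C were the closest pair, and the 8 lowest all held TAP2. These points share libraries, groups and cross-hybridising probes, so the values are a description. The probe sets most like the mean of the 9 genes over the same arrays were of LARP6 (r = 0.984), CD44 (0.983), SRPX (0.982), GBP1 (0.979) and TPM1 (0.979). Among these GBP1, an interferon-induced guanylate-binding protein, changed by -1.71 with S2sh7 in GFP cells, and CD44, a hyaluronan receptor, by -0.55.

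Other genes of the pathway were read from a list of 58, of which 54 had a probe set of their own and 52 were tested, with 1 probe set each. In H1299 with GFP 9 were called higher, 13 lower and 30 were not called, with a median of 0.003, against 10.3% of all probe sets called higher and 14.3% lower. In A549 with GFP or ATPdead 30 were called higher, 11 lower and 11 not called, with a median of 0.24, against 24.8% higher and 20.6% lower. The 11 lower in A549 are near that background. For the WT minus GFP difference in H1299 2 were called higher, IRF9 (0.74, adjusted p = 0.000573) and HLA-G (0.32, adjusted p = 0.0211), and 0 lower.

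Of the 5 peptide loading genes 2 were called lower in H1299 (14.3% of all), the TAP-binding chaperone tapasin, TAPBP (-0.34), and its relative TAPBPL (-0.46). In A549 all 5 were called lower (20.6% of all), among them TAPBP (-0.47), calreticulin CALR (-0.57), PDIA3 (-0.56) and calnexin CANX (-0.49). TAPBPL averaged only log2 5.05 over all arrays, near the filter of log2 5, so no change is read from it in either line. The peptide-trimming enzyme ERAP1 was not called in either line (-0.06 and 0.03).

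The remaining inducible catalytic subunit, PSMB10, was not called in H1299 (-0.04, adjusted p = 0.596) or A549 (-0.13, adjusted p = 0.236). The proteasome activator subunit PSME1 fell in both (-0.20 and -0.96). PSMB5, the constitutive subunit that PSMB8 replaces, rose in both (0.44, adjusted p = 2.59e-08, and 0.88, adjusted p = 1.59e-05). PSMB6, which PSMB9 replaces, was 0.02 in H1299, not called, and rose by 0.50 in A549. PSMB7, which PSMB10 replaces, did likewise (0.05 and 0.84). Of 10 structural subunits of the core 1 rose in H1299 (10.3% of all were higher), PSMB4 (0.09), and 8 in A549 (24.8% of all were higher), led by PSMB4 (0.55), PSMA1 (0.50) and PSMB3 (0.30), and 0 fell. The assembly chaperone POMP rose in A549 (0.31).

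Among 14 regulators 7 were called lower and 2 higher in H1299 (14.3% and 10.3% of all). IRF9, the DNA-binding part of the interferon-stimulated factor, fell by 0.83 and IRF1, an activator of class I genes, by 0.63 (adjusted p = 5.6e-08 and 3.08e-09). NLRC5, the class I transactivator, was called lower too, but it read 4.83 to 4.94 with shLuc and 4.28 to 4.61 with S2sh7, all under the floor of log2 5, so no change is read from it. In A549 9 were called higher and 1, NLRC5, lower (-0.53), its S2sh7 arrays reading 4.77 and 4.84 (24.8% and 20.6% of all). There IRF1 rose by 0.30, NFKB1 by 1.08 and RELA by 0.63, both subunits of NF-kB, and STAT3 by 0.92. The Y box-binding subunits NFYB (0.77) and NFYA (0.32) rose too, while IRF9 was -0.01, not called. The interferon receptor kinases JAK1 (1.07) and JAK2 (1.03) rose in A549, and in H1299 JAK2 rose by 0.25 and JAK1 was not called (0.04). Of the receptor chains IFNAR1, IFNAR2 and IFNGR2 rose in A549 (0.62, 0.55 and 0.78), while IFNGR1 fell there (-0.76) and in H1299 (-0.20).

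**Figure D5:**
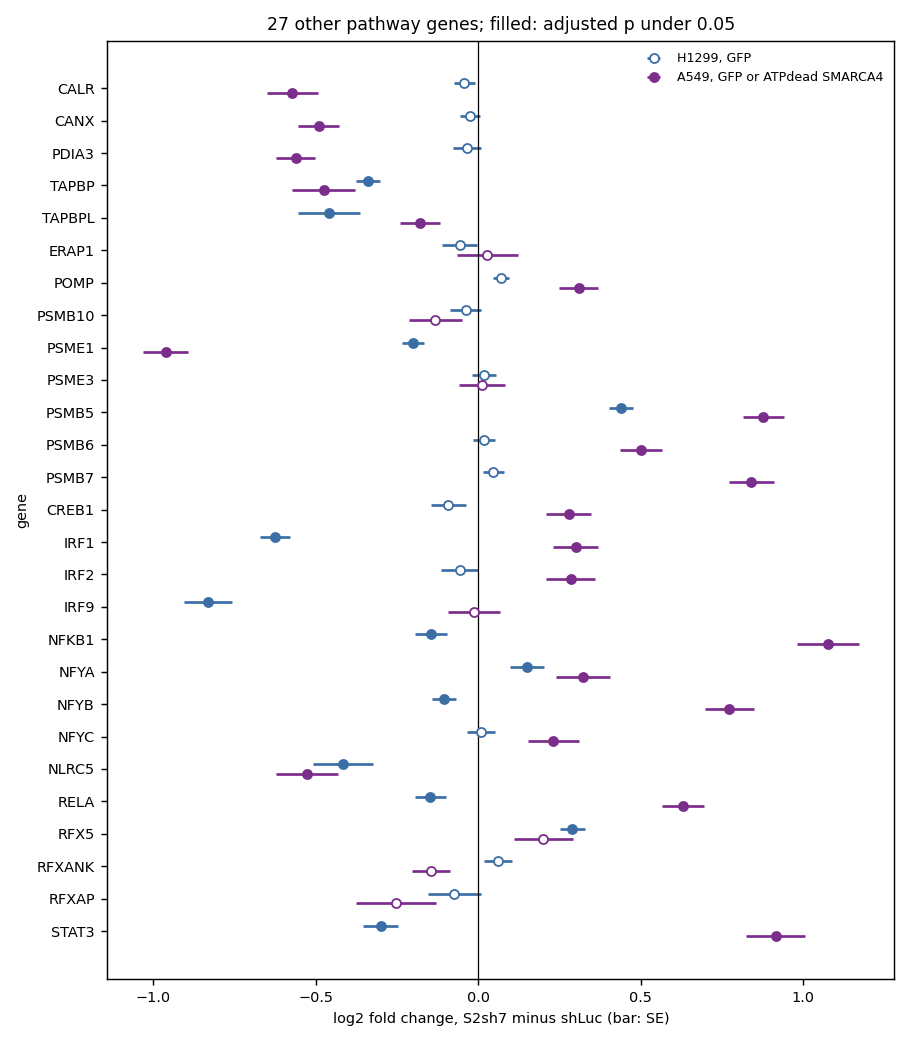
Log2 fold change of S2sh7 against shLuc (horizontal axis, SE as bars) for 27 loading, trimming, proteasome and regulator genes (vertical axis) in H1299 with GFP and in A549 with GFP or ATPdead SMARCA4. Filled points passed adjusted p under 0.05; IRF1, NFKB1, RELA and STAT3 lie on opposite sides of 0 in the 2 lines, and TAPBP and PSME1 on the lower side in both.

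Of 8 other class I or class I-like genes 2 fell and 2 rose in H1299 (14.3% and 10.3% of all). HLA-G (-0.45) and the pseudogene HLA-J (-0.34), whose probes may also match the genes above, fell, and FCGRT (0.13) and MICA (0.10) rose. In A549 4 rose (24.8% of all), led by the stress ligands MICB (1.25) and MICA (0.80) and followed by HLA-G (0.54) and HLA-J (0.39). There 3 fell (20.6% of all), HFE (-1.19), FCGRT (-0.91) and MR1 (-0.55), whose products also pair with beta-2-microglobulin.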

How the data were processed

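Affymetrix HG-U133 Plus 2.0 arrays, which read the 3′ end of transcripts, measured total RNA from 24 H1299 and 8 A549 samples. The deposited values are RMA intensities on a linear scale, made by the authors with RMA, and limma is also named, per the submitters' processing notes; versions and genome build are not given in the sources used here. The design had assumed log2 values, so log2 was taken with no pseudocount. Lines were fitted apart in limma 3.58.1 (R 4.3.3): H1299 with 8 group means (16 residual degrees of freedom), A549 additively (3) and as hairpin by ATPase-competent cDNA (4), with default eBayes, Benjamini-Hochberg adjustment over 32893 probe sets and a threshold of 0.05. The filter was log2 over 5 in at least 3 arrays. Members and lists were chosen with earlier results of these data known. All member genes are named; of the pathway list 12 genes were to be named whatever their result, where tested, and others if called with a log2 fold change over 0.3 either way. Alternatives were other filters, 1 probe set per gene, repeated quantile normalization, centring, eBayes with trend and robust, fewer groups, a replicate block and leaving out arrays. The fits were tested on simulated data. Symbols came from the platform annotation, and sequences and gene order from RefSeq (GRCh38.p14). Figures used Python 3.11.15, pandas 2.3.3 and matplotlib 3.10.9. Array number, 3 per H1299 group and 1 per A549 group, limits precision.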

Additional observations from a re-analysis of the deposited data

Results flagged for a closer look

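Knockdown effects were tested against each other within each line over the leading probe sets, and these differences passed the threshold. In H1299 the effect with WT minus that with GFP was 0.42 for PSMB9, 0.40 for HLA-C, 0.39 for HLA-B, 0.38 for PSMB8, 0.32 for HLA-F and 0.21 for B2M. The PSMB9, HLA-F and B2M calls were lost without the filter on dim probe sets and with only those groups fitted. The effect with WT minus that with ATPdead, a comparison added after seeing the data, was 0.30 for HLA-C and 0.31 for HLA-B. In A549 the effect with WT or BRD SMARCA4 minus that with GFP or ATPdead was -1.39 for PSMB9, -1.25 for TAP1, -0.73 for HLA-E, -0.67 for TAP2, -0.57 for HLA-F and 0.67 for B2M. There the HLA-F and B2M calls were each lost when some single arrays were left out. Between the lines the difference was not tested against any A549 spread, since each A549 arm is 1 array. For 8 genes the S2sh7 array with GFP was above the shLuc array in A549 and all S2sh7 arrays were below all shLuc arrays in H1299. In A549 PSMB8 was above by only 0.04 with GFP and was -0.05 with ATPdead, so no rise is read from it. Of all probe sets 20.7% lay below in H1299, and the share above in A549 was not counted. The GFP knockdown effect in A549 minus that in H1299 was 2.66 for PSMB9, 2.08 for TAP1, 1.40 for HLA-E, 1.28 for TAP2, 1.16 for HLA-B, 0.99 for HLA-C, 0.95 for HLA-F and 0.81 for PSMB8. Line and batch cannot be told apart in this last set. No group of 4 to 10 replicates exists, so no array was tested as an outlier.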

How the results depend on the processing

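Values here are the percent of the 20 member probe sets, or of those a setting leaves, that were called; no leading probe set of the 9 genes that was called changed direction under any alternative. With no filter (23 probe sets) the WT minus GFP difference of knockdown effects gave 34.8%, ATPdead against GFP under S2sh7 0%, ATPdead against WT 26.1% and the A549 knockdown over the 4 cDNAs 13%. With log2 over 6, the BRD minus GFP difference and WT against GFP under shLuc gave 5.26% each, and the A549 knockdown with WT or BRD 21.1%. With 1 probe set per gene, the BRD minus GFP difference, WT against GFP under shLuc and the A549 knockdown over the 4 cDNAs gave 11.1% each, ATPdead against GFP under S2sh7 0% and the A549 knockdown with WT or BRD 22.2%. Repeated quantile normalization and centring each took ATPdead against GFP under S2sh7 to 0%. Trend and robust moderation gave 20% for the BRD minus GFP difference, for WT against GFP under shLuc and for the A549 knockdown with WT or BRD, 10% for ATPdead against GFP under S2sh7, and 5% for BRD against WT under S2sh7 and BRD against GFP under shLuc. With only the groups compared, WT against GFP under S2sh7 gave 10%, and BRD against GFP, ATPdead against GFP and ATPdead against WT under S2sh7 gave 0% each. The cause of these moves was not tested. Without 1 array the ranges were 90 to 95% for the H1299 knockdown with GFP, 45 to 55% for the WT minus GFP difference, 0 to 5% for the BRD minus GFP difference and for ATPdead against GFP under S2sh7, 0 to 20% for the A549 knockdown over the 4 cDNAs, 5 to 15% for that with WT or BRD, where 5% was without the shLuc WT array, and 40 to 75% for the A549 difference of effects. With the replicate number as a block, all 135 H1299 results of leading probe sets kept their direction and side of the threshold. The numbers do not pair the arrays: same-numbered arrays had correlated deviations of -0.267 to 0.3 (median -0.00472), and 8 of 24 arrays correlated best with their own number. The number of arrays limits small differences, above all in A549.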
